A study of Mus musculus with 12 samples.

Results

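The IgLON and Igdcc adhesion molecules are 7 genes of the immunoglobulin superfamily: Iglon5, Negr1, Lsamp, Ntm and Opcml of the IgLON family, and Igdcc3 and Igdcc4 of the DCC subclass. They were taken by gene symbol from the deposited comparison tables and joined by gene ID to the deposited counts, and all 7 were found among 27179 genes. RNA of the dorsal cortex of C57BL/6 mouse embryos was sequenced in 12 libraries, 3 from wild-type (WT) and 3 from Ash2l conditional knockout (cKO) embryos at each of the embryonic ages E14.5 and E16.5, which count days of gestation. The knockout uses D6-Cre, a Cre line active in the dorsal telencephalon, so cells in which the D6 enhancer is silent keep Ash2l. ASH2L is a shared subunit of the COMPASS enzymes that put methyl groups on lysine 4 of histone H3, and the study asked what it does while the cortex forms. The labels do not say whether the WT embryos carried Cre or floxed alleles, or whether a library is 1 embryo, and the p-values measure only the spread between these libraries. The libraries of each group are called A, B and C in the order of the first number in their titles.

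IgLON proteins are short cell-surface proteins made of immunoglobulin domains and held in the membrane by a glycosylphosphatidylinositol (GPI) anchor. They bind one another within and between cells, and on neurons they are known for effects on neurite outgrowth and synapse formation. Igdcc3 and Igdcc4 are instead transmembrane proteins with immunoglobulin and fibronectin type III domains, related to the netrin receptor DCC and to neogenin.

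The 7 genes lie on 4 chromosomes of mm10 and differ widely in size. Igdcc4 (chr9:65101495-65137943, plus strand, 20 exons) and Igdcc3 (chr9:65141189-65185872, plus strand, 14 exons) are neighbours, with 3245 bases between the end of the first and the start of the second. Opcml (chr9:27791269-28925058, plus strand) and Ntm (chr9:28995964-29963129, minus strand) lie on the same chromosome with their 3' ends facing across 70.9 kb. Lsamp (chr16:41533342-42146213, plus strand) and Negr1 (chr3:156561794-157316447, plus strand) have no other member beside them. As counted, from first to last exon, these 4 genes span between 613 and 1134 kb each. Iglon5 (chr7:43472907-43490023, minus strand, 8 exons) spans 17.1 kb, Igdcc4 36.4 kb and Igdcc3 44.7 kb.

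The bases upstream of the RefSeq start sites of Iglon5, Igdcc4 and Igdcc3 are shown because the first pair of these genes carried the lower calls and the third is the immediate neighbour of the second. Each line gives 250 bases from RefSeq on GRCm38.p6, the assembly that mm10 names, 5′ to 3′ on the gene's own strand and ending at the base before the start site. Capitals mark every CG dinucleotide.
Iglon5 (chr7:43490212-43490461, minus strand): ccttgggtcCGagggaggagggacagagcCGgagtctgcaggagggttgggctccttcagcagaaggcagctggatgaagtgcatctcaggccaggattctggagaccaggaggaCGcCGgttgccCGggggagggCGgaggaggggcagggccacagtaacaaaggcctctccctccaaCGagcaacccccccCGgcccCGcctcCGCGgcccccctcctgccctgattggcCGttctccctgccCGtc
Igdcc4 (chr9:65101236-65101485, plus strand): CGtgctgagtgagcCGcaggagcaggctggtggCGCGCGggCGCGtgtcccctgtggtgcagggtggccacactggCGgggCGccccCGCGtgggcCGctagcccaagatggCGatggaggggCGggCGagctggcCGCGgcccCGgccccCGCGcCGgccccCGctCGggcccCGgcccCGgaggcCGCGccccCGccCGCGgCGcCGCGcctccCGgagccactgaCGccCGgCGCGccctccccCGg
Igdcc3 (chr9:65140904-65141153, plus strand): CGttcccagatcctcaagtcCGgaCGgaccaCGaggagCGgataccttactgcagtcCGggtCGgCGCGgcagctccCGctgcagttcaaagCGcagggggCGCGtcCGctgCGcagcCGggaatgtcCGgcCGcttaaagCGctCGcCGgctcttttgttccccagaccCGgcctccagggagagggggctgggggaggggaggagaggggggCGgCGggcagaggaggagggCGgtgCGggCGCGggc

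Igdcc4 had 39 CG dinucleotides in this window and 84.0% G or C, and 98.4% of the 32841 RefSeq promoters in the table had fewer. Igdcc3 had 28 and Iglon5 had 13, against a median of 6 over that table. The motif GGGCGG, searched on both strands, was found 2 times upstream of Igdcc4, 2 times upstream of Igdcc3 and 1 time upstream of Iglon5, and 32.7% of all promoters held it. TATAAA, searched on both strands, was in none of the 3 windows and in 12.4% of all promoters. All 7 members matched the table, with 9 start sites in all. These do not always match the counted gene: the first Lsamp start site lies 1548978 bases upstream of the counted start. Those of Ntm lie inside its counted span. The other members had between 2 (the first Ntm start site) and 19 (Negr1) CG dinucleotides. Of tested genes with 20 or more upstream CG dinucleotides 15.4% were called at E16.5, against 17.4% of those with fewer than 10.

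Total counts per library ran from 14318147 to 24719047, and each of the 7 members passed the filter on low counts in every comparison. Levels are CPM, counts relative to library sizes that were scaled by trimmed mean of M-values (TMM). Ash2l itself fell at both ages, from 129 ± 12.9 CPM in WT to 52.8 ± 6.61 in cKO at E14.5 and from 133 ± 3.57 to 58.1 ± 3.30 at E16.5 (SD, n = 3), with no overlap of the groups. By Xist and Y-linked counts, all 3 WT embryos at E14.5 were male and all 3 cKO embryos female, so at E14.5 genotype and sex cannot be told apart. At E16.5 WT library A and cKO library C were female and the other 4 male. Among marker lists of other cell types, summed meningeal fibroblast markers were at 570 CPM in cKO library A at E14.5 and between 68.1 and 135 CPM in the other 11 libraries, and choroid plexus markers were at 496 CPM in WT library A at E14.5, 640 CPM in WT library C at E16.5 and between 15.7 and 65.2 CPM in the other 10.

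Iglon5 was lower in the cKO at both ages, by more than 2-fold. Its product is a neuronal surface protein, known as the target of autoantibodies in a human neurological disorder. At E14.5 it measured 41.7, 44.5 and 41.9 CPM in WT libraries A, B and C and 19.5, 19.7 and 21.8 CPM in the cKO libraries. At E16.5 the WT libraries held 47.3, 50.8 and 43.6 CPM and the cKO libraries 19.2, 22.6 and 20.9 CPM. The groups did not overlap at either age, and the highest library of any group was at most 1.18 times its lowest. The log2 fold change was -1.06 at E14.5 (SE 0.0947, 95% interval -1.28 to -0.84, adjusted p = 0.0107) and -1.18 at E16.5 (SE 0.0993, 95% interval -1.41 to -0.95, adjusted p = 0.00127), by edgeR's quasi-likelihood test with Benjamini-Hochberg adjustment over all genes. It was 1 of 217 genes (1.50% of those tested at both ages) called lower at E14.5 and at E16.5. In tissue RNA, fewer cells of a type and less RNA per cell cannot be told apart.

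The Iglon5 value moved little between settings. At E14.5 it lay between -1.11 and -1.03 with any 1 library left out, but the call was lost without WT library C (-1.07, adjusted p = 0.0978) and without cKO library C (-1.11, adjusted p = 0.0857). In a fit over all 12 libraries with embryo sex as a term it was -1.07 at E14.5 (adjusted p = 0.0101). That term is set by the E16.5 libraries only, so this fit cannot tell genotype from sex at E14.5. Within the male libraries of E16.5, WT measured 50.8 and 43.6 CPM and cKO 19.2 and 22.6 CPM, and in the female libraries WT measured 47.3 and cKO 20.9 CPM.

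Igdcc4, also called Nope, is a transmembrane relative of DCC and neogenin. It was at 85.6, 77.0 and 79.1 CPM in the WT libraries of E14.5 and at 58.5, 36.4 and 44.3 CPM in the cKO libraries. At E16.5 it was at 84.6, 85.1 and 78.9 CPM in WT and at 40.1, 41.8 and 41.5 CPM in the cKO. No cKO library reached a WT library at either age. The E16.5 cKO libraries lay within 1.04 times of each other, whereas at E14.5 library A stood above the other cKO libraries. At E16.5 Igdcc4 fell by 1.02 on the log2 scale (SE 0.0675, 95% interval of the change -1.17 to -0.86, adjusted p = 8.19e-04), the seventh smallest p of 14865 genes.

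At E14.5 the Igdcc4 log2 difference was -0.78 (SE 0.176, 95% interval -1.20 to -0.37) and did not pass the threshold (adjusted p = 0.0726). Without cKO library A it was -0.999 and passed (adjusted p = 0.0163). That library was the highest of E14.5 in summed meningeal markers and the lowest in pan-neuronal markers, and the part of either was not tested. The 12-library fit gave -0.80 (adjusted p = 0.00539), and with embryo sex as a term -0.83 (adjusted p = 0.0896). The sex term is set by the E16.5 libraries only. In the authors' deposited table for E14.5, where ratios are WT over knockout, Igdcc4 had a log2 ratio of 0.71 with an adjusted p of 0.00188. At E16.5 the male libraries measured 85.1 and 78.9 CPM in WT and 40.1 and 41.8 CPM in cKO, and the female libraries 84.6 and 41.5 CPM.

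Igdcc3, also called Punc, adjoins Igdcc4 and encodes its closest relative among the members. It was at 20.4, 18.8 and 20.2 CPM in WT and 18.3, 15.5 and 17.6 CPM in cKO at E14.5, and at 14.3, 17.1 and 15.3 CPM in WT and 16.8, 16.2 and 17.9 CPM in cKO at E16.5. The E14.5 groups were separated by a narrow gap and the E16.5 groups overlapped. Its log2 fold change was -0.20 (95% interval -0.46 to 0.07, adjusted p = 0.379) at E14.5 and 0.12 (95% interval -0.14 to 0.37, adjusted p = 0.517) at E16.5. The upstream neighbour of Igdcc4 on the same strand, Dpp8, a dipeptidyl peptidase gene 18.8 kb away, measured 222 ± 1.88 CPM in WT and 220 ± 11.1 in cKO at E14.5 and 236 ± 5.83 and 240 ± 6.04 at E16.5 (SD, n = 3). Its log2 fold changes were -0.00 (adjusted p = 0.991) and 0.02 (adjusted p = 0.881).

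**Figure D1:**
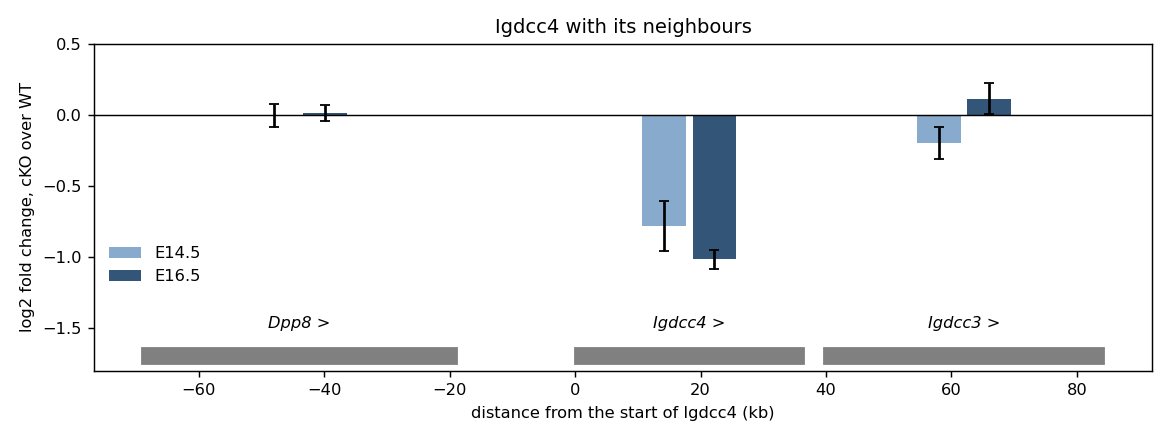
Log2 fold change of cKO over WT (vertical axis, bars with standard error, n = 3 libraries per group) for Igdcc4, its upstream neighbour Dpp8 and its downstream neighbour Igdcc3, placed over the genes drawn to scale in kb from the start of Igdcc4. The Igdcc4 bars reach -0.78 at E14.5 and -1.02 at E16.5, while those of Dpp8 lie at -0.00 and 0.02 and those of Igdcc3 at -0.20 and 0.12.

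The pair's ratio puts the difference between them on a scale that does not depend on library scaling. Per kb of exon, Igdcc4 stood at 2.13, 2.07 and 1.98 times the level of Igdcc3 in the WT libraries of E14.5 and at 1.62, 1.19 and 1.28 times in the cKO libraries. At E16.5 the ratios were 2.99, 2.52 and 2.60 in WT and 1.21, 1.30 and 1.17 in cKO. Every cKO library had a lower ratio than every WT library of its age. The difference in mean log2 ratio, cKO minus WT, was -0.61 at E14.5 and -1.13 at E16.5. An exact two-sided permutation test within ages, over both ages, gave p = 0.005, the smallest that its 400 arrangements can give (adjusted p = 0.03 over 6 within-family ratios). With the arrangements at E16.5 kept within libraries of the same title number, the exact p was 0.0125, the smallest that 160 arrangements can give (adjusted p = 0.0375). The other 5 ratios set each IgLON gene against the sum of the other 4, and none of these passed after adjustment in the first test. A single age with 3 against 3 libraries cannot go below 0.1, and the ratio was chosen after the values of its members had been seen. At E14.5 the WT libraries were male and the cKO libraries female, so there the test cannot tell genotype from sex. Within the male libraries of E16.5 the ratios were 2.52 and 2.60 in WT and 1.21 and 1.30 in cKO. In the female libraries of E16.5 they were 2.99 in WT and 1.17 in cKO.

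Negr1, neuronal growth regulator 1, was not called at either age, though its E14.5 groups did not overlap. It measured 51.4, 74.4 and 62.9 CPM in WT and 25.6, 45.5 and 37.3 CPM in cKO at E14.5, with each cKO library below each WT library. At E16.5 the values were 50.8, 50.6 and 55.2 CPM in WT and 57.5, 40.2 and 51.1 CPM in cKO, and the groups overlapped. The log2 difference at E14.5 was -0.79 (SE 0.218, 95% interval -1.30 to -0.28, adjusted p = 0.108), which did not pass. It passed in the 12-library fit (-0.80, adjusted p = 0.0286) but not with embryo sex as a term (adjusted p = 0.248). The sex term is set by the E16.5 libraries only. The authors' deposited table gives a WT-over-knockout log2 ratio of 0.68 with an adjusted p of 0.0145. At E16.5 the log2 difference was -0.08 (95% interval -0.38 to 0.21, adjusted p = 0.710).

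The other 3 IgLON genes were not called at either age in the fits of all 6 libraries with genotype as the only term. Lsamp, the limbic system associated membrane protein, measured 10.2, 19.99 and 13.2 CPM in WT and 6.08, 13.04 and 8.21 CPM in cKO at E14.5, and 24.3, 16.6 and 18.3 CPM in WT and 23.5, 12.5 and 13.5 CPM in cKO at E16.5. Library B was the highest of both genotypes at E14.5 and library A at E16.5, and the groups overlapped at both ages. Its log2 fold change was -0.66 (95% interval -1.44 to 0.11, adjusted p = 0.313) at E14.5 and -0.27 (95% interval -0.85 to 0.32, adjusted p = 0.522) at E16.5.

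Ntm, neurotrimin, measured 14.7, 36.5 and 25.6 CPM in WT and 8.62, 35.8 and 22.9 CPM in cKO at E14.5, and 50.8, 44.0 and 39.4 CPM in WT and 57.1, 35.2 and 33.8 CPM in cKO at E16.5. The spread within the E14.5 cKO group, 4.16-fold from lowest to highest, was the widest of any member in any group. Its log2 fold changes were -0.19 (95% interval -1.36 to 0.98, adjusted p = 0.859) and -0.09 (95% interval -0.56 to 0.38, adjusted p = 0.795). Without cKO library A of E16.5, Lsamp was at -0.61 (adjusted p = 0.0356) and Ntm at -0.38 (adjusted p = 0.0497). WT library A, of the same title number, stayed in that fit and was the highest WT library of E16.5 for both genes. With library number as a block and all libraries kept, neither gene was called at E16.5.

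Opcml, the opioid binding protein and cell adhesion molecule-like gene, measured 42.9, 68.5 and 51.2 CPM in WT and 23.9, 87.0 and 61.8 CPM in cKO at E14.5, and 197, 174 and 136 CPM in WT and 194, 169 and 113 CPM in cKO at E16.5. The genotypes overlapped at both ages. Its log2 fold change was 0.09 (95% interval -0.88 to 1.05, adjusted p = 0.924) at E14.5 and -0.09 (95% interval -0.56 to 0.38, adjusted p = 0.804) at E16.5, intervals that leave room for changes of either sign.

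**Figure D2:**
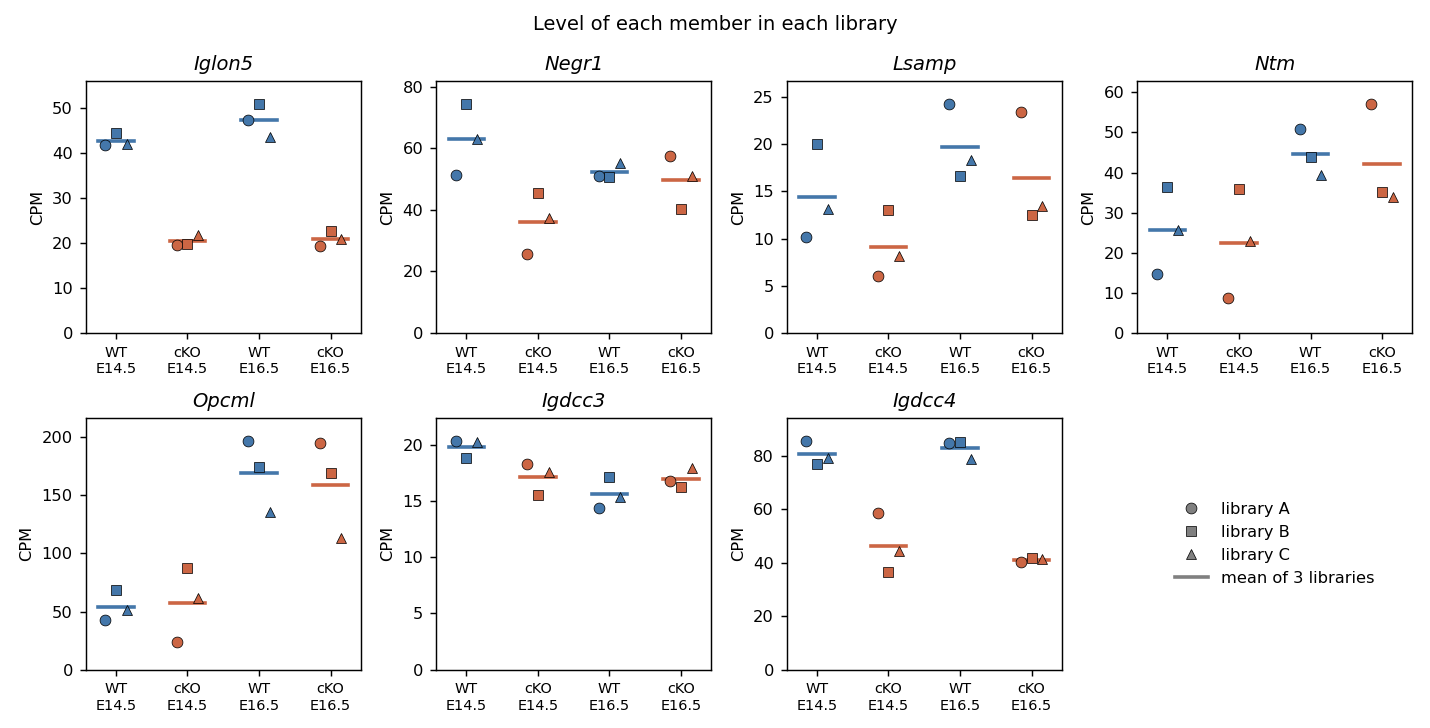
Level of each of the 7 members in every library (CPM, linear axes from 0, points are libraries A, B and C, bars are means of 3 libraries) for WT in blue and cKO in orange at E14.5 and E16.5. Iglon5 and Igdcc4 show no cKO library as high as a WT library at either age, and Opcml stands between 113 and 197 CPM at E16.5 against 23.9 to 87.0 CPM at E14.5.

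At E14.5, then, 1 of the 7 members was called, lower, where 2.01% of 14788 genes were called and 1.66% called lower. The groups did not overlap for 4 members, all lower (Iglon5, Negr1, Igdcc3 and Igdcc4), where 14.8% of genes were lower without overlap. At E16.5, 2 of 7 were called, both lower, where 15.9% of 14865 genes were called and 9.88% called lower. With library number as a block the E16.5 count over all genes was 4790 instead of 2358, and the same members, Iglon5 and Igdcc4, were called. The groups did not overlap for these 2 members, against 18.3% of genes lower without overlap. The median log2 fold change of the 7 members was -0.66 at E14.5 and -0.09 at E16.5, beside 0.03 and 0.02 over all genes tested.

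**Figure D3:**
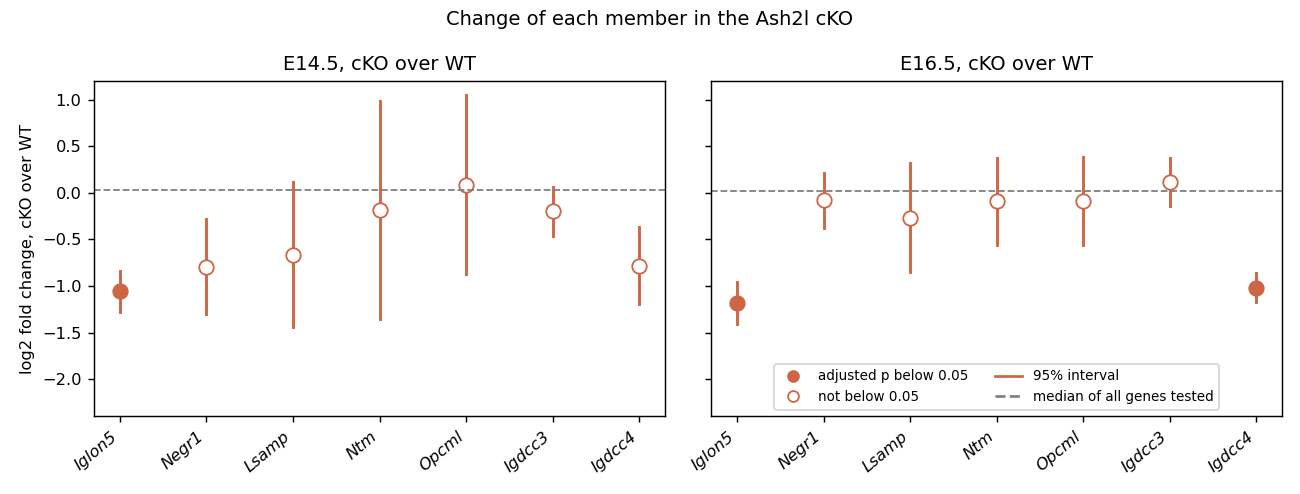
Log2 fold change of cKO over WT with its 95% interval for each member at E14.5 (left) and E16.5 (right), from 3 libraries per group; filled points passed an adjusted p of 0.05 and the dashed line is the median of all genes tested. Iglon5 is filled at both ages and Igdcc4 at E16.5, and the interval of Ntm at E14.5 runs from -1.36 to 0.98.

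No member's cKO effect was called as different between the ages. In the test of that difference 0 of 15338 genes passed by edgeR and 0 by DESeq2 (0.00% called), while 318 had an unadjusted p under 0.05 by edgeR. Negr1 had the smallest unadjusted p of the 7: the difference of its effects, E16.5 minus E14.5, was 0.73 on the log2 scale (95% interval 0.12 to 1.33), with an adjusted p of 0.9999 by edgeR. Igdcc3 followed with 0.33 (95% interval 0.02 to 0.64) and the same adjusted p. The difference for Iglon5 was -0.11 (95% interval -0.39 to 0.18) and for Igdcc4 -0.21 (95% interval -0.63 to 0.20). Genotype and sex cannot be told apart at E14.5, so each of these differences also holds any effect of sex at that age.

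With age, Opcml rose in both genotypes. In WT it went from a mean of 54.2 CPM at E14.5 to 169 CPM at E16.5, a log2 fold change of 1.64 (SE 0.372, 95% interval 0.83 to 2.45, adjusted p = 0.0481). In the cKO it went from 57.5 to 159 CPM, 1.47 on the log2 scale (SE 0.371, 95% interval 0.66 to 2.28, adjusted p = 0.0424). All E16.5 libraries were above all E14.5 libraries in either genotype, as for 17.0% of genes in WT and 18.8% in cKO. Opcml was the only member called for age in either genotype, where 2.15% of genes were called in WT and 7.62% in cKO (0.763% and 3.91% higher). The calls lie close to the threshold: with any 1 of the 12 libraries left out the WT value stayed between 1.50 and 1.85 with an adjusted p between 0.00864 and 0.194, and the cKO value between 1.09 and 1.87 with an adjusted p between 0.0110 and 0.152. The WT call held in 5 of these 12 fits: without WT library B, cKO library A or cKO library B of E14.5, and without cKO library A or C of E16.5. The cKO call held in 4: without WT library A, WT library B or cKO library B of E14.5, and without cKO library C of E16.5. The E14.5 WT libraries were all male and the E14.5 cKO libraries all female, while each E16.5 group held both sexes. No title number is shared between the ages. The age fits have no term for sex or title number, and the part of either in the age differences was not tested.

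The other members gave smaller age differences that did not pass. Ntm was higher in every WT library of E16.5 than in any of E14.5 (log2 fold change 0.81, adjusted p = 0.233), and Igdcc3 was lower in every one (-0.35, adjusted p = 0.0706), where 17.0% of genes were higher and 18.3% lower without overlap. In the cKO, Lsamp was at 0.87 (adjusted p = 0.0952), Ntm at 0.91 (adjusted p = 0.156) and Negr1 at 0.46 (adjusted p = 0.128). Without cKO library B of E14.5, all 3 of these passed as higher (adjusted p between 0.0327 and 0.0408) and Igdcc4 as lower (-0.35, adjusted p = 0.0481). Iglon5 and Igdcc4 differed by 0.15 and 0.04 on the log2 scale between the WT ages.

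Within both E14.5 genotypes, Lsamp, Ntm, Opcml and Negr1 were lowest in library A and highest in library B. The summed level of 20 pan-neuronal markers took the same order, at 5778, 8460 and 6415 CPM in WT libraries A, B and C and 3155, 5829 and 5109 CPM in the cKO. Summed GABAergic and ventral markers were at 215, 553 and 303 CPM and at 150, 239 and 219 CPM. Iglon5 took that order in WT but not in the cKO, and Igdcc3 and Igdcc4 were lowest in library B in both genotypes. The part of neuronal content in the 4 genes' levels was not tested.

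Set per kb of exon, which allows genes to be compared, Iglon5 was the highest of the 7 in WT at E14.5 with 16.6 ± 0.609 CPM per kb (SD, n = 3). Ntm (14.2 ± 6.03), Igdcc4 (12.97 ± 0.720), Negr1 (10.6 ± 1.94), Opcml (9.03 ± 2.18), Igdcc3 (6.30 ± 0.265) and Lsamp (5.86 ± 2.03) followed. The ranges of neighbours in this order overlapped except for Opcml and Igdcc3. In the E14.5 cKO, Ntm (12.4 ± 7.53) and Opcml (9.58 ± 5.29) led, Iglon5 came next with 7.92 ± 0.495, and Lsamp was again last with 3.69 ± 1.44.

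At E16.5 Opcml (28.1 ± 5.15 CPM per kb) and Ntm (24.7 ± 3.17) led in WT with overlapping ranges, and Iglon5 (18.4 ± 1.42) and Igdcc4 (13.3 ± 0.552) came next, each below the range of the one before. Negr1 (8.82 ± 0.435) and Lsamp (8.00 ± 1.63) overlapped, and Igdcc3 (4.96 ± 0.441) was last. In the E16.5 cKO, Opcml (26.5 ± 6.93) and Ntm (23.2 ± 7.23) stood far above the other 5, which lay between 5.39 and 8.38 CPM per kb on average. There Iglon5 (8.14 ± 0.665) overlapped with Negr1 (8.38 ± 1.47) and Igdcc4 (6.62 ± 0.142) with Lsamp (6.67 ± 2.47).

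The makeup of the IgLON family is described by each gene's share of the summed level per kb. Iglon5 gave 36.6%, 24.9% and 29.7% of the summed IgLON level per kb in WT libraries A, B and C of E14.5 and 32.9%, 13.9% and 20.7% in the cKO libraries. At E16.5 it gave 18.9%, 22.4% and 21.7% in WT and 8.25%, 12.9% and 13.6% in cKO. The E14.5 shares overlapped between genotypes, and the E16.5 shares did not. The summed IgLON level was 56.3 ± 12.7 CPM per kb in WT and 39.7 ± 15.9 in cKO at E14.5, and 88.1 ± 9.82 and 72.9 ± 15.9 at E16.5 (SD, n = 3), with overlap at both ages. Opcml gave 16.01% ± 0.453 in WT and 22.9% ± 4.98 in cKO at E14.5, and 31.7% ± 2.47 and 36.2% ± 4.90 at E16.5. In the permutation test of each IgLON gene against the sum of the other 4, no gene passed after adjustment, Iglon5 included. Opcml alone passed when the arrangements at E16.5 were kept within libraries of the same number. Since shares sum to a whole, a lower share of 1 gene raises those of the others.

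**Figure D4:**
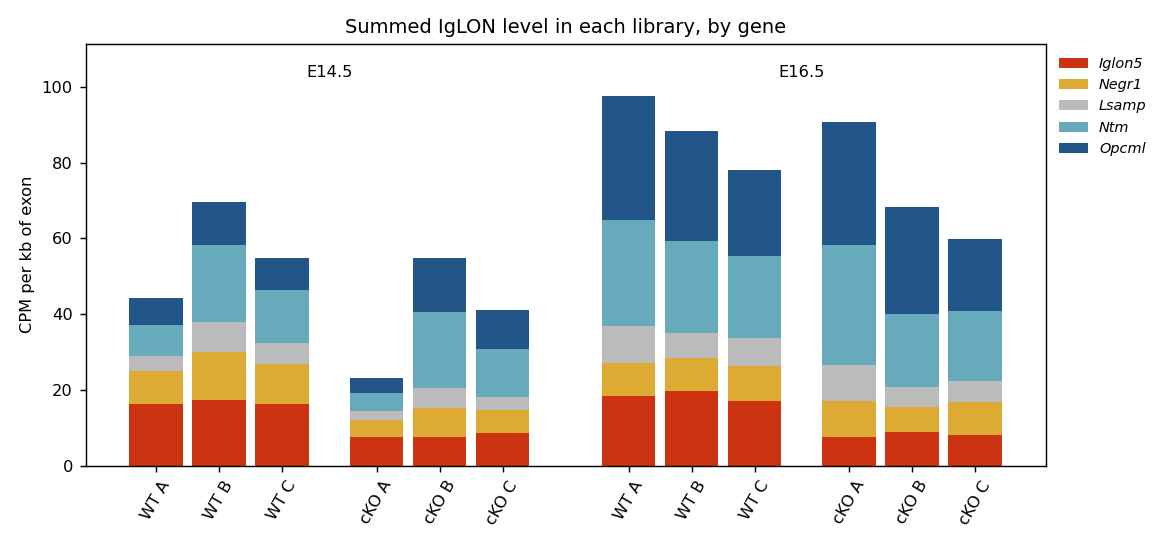
Summed level of the 5 IgLON genes in each of the 12 libraries (CPM per kb of exon, stacked by gene, axis from 0), with WT and cKO libraries A, B and C at E14.5 on the left and at E16.5 on the right. The Iglon5 segment at the base is lower in all cKO libraries than in all WT libraries of the same age, and the Opcml segment is taller in all E16.5 libraries than in all E14.5 libraries.

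By likeness of profile over the 12 libraries (root mean square distance of centred log2 CPM over 12632 genes), the genes closest to Iglon5 were Prr18 (0.129) and Stxbp2, a syntaxin binding protein (0.133). The median distance of all genes from Iglon5 was 0.620. Prr18 fell by 0.98 and 1.17 on the log2 scale at E14.5 and E16.5 (adjusted p = 0.0259 and 0.00240). Stxbp2 fell by 1.15 and 1.27 (adjusted p = 0.0106 and 0.00191). Genes picked for a profile near that of Iglon5 over these libraries must fall with it, so these p-values are no separate evidence. Closest to Igdcc4 were Prrg3 (0.122) and Sfxn1, a mitochondrial serine transporter (0.125). Igdcc4 was 64th in order of closeness to Iglon5 (0.207), and no other member was nearer to Iglon5 than place 1655. Closest to Opcml were Fosl2 (0.198) and Dgkg (0.199), and Ntm was 48th.

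For the other members, the closest genes to Ntm were Erbb4 (0.149), a neuregulin receptor, and Nxph1 (0.169). Those closest to Lsamp were Pde4b (0.128), a phosphodiesterase, and Rapgef5 (0.133). Those closest to Negr1 were Sel1l3 (0.106) and Wnt7b (0.173), a Wnt ligand. Those closest to Igdcc3 were Gabpb1 (0.0843) and Vrk1 (0.0889). All 12 points of each profile share their library with those of every other gene, so closeness is a description of these libraries.

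Of the 6 other neighbours that were tested, Gap43 alone was called, at E16.5, where 15.9% of all genes were called. Vsig10l, whose 3' end faces that of Iglon5 from 890 bases away, had log2 fold changes of -0.08 (adjusted p = 0.885) and 0.59 (adjusted p = 0.202) at E14.5 and E16.5. Gap43, the growth cone protein gene 102 kb beyond Lsamp, was at -0.60 (adjusted p = 0.253) at E14.5 and fell by 0.48 at E16.5 (adjusted p = 0.00498). Snx19, upstream of Ntm, and Zranb2, downstream of Negr1, were between -0.04 and 0.12 with adjusted p between 0.492 and 0.839. Of genes spanning 500 kb or more, the class of Lsamp, Ntm, Opcml and Negr1, 29.1% of 182 were called at E16.5 and 19.2% were called lower, and their median log2 fold change was -0.33 at E14.5 and -0.15 at E16.5. None of the 4 members in that class was called at E16.5. Of genes under 20 kb, the class of Iglon5, 8.06% were called lower at E16.5, and of those from 20 to 100 kb, the class of both Igdcc genes, 10.04%.

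Relatives of the members, listed by family, also held lower calls at E16.5. Of 13 tested DCC and neogenin relatives, netrins and other netrin receptors, 3 fell and 0 rose at E16.5 (median log2 fold change -0.32). Over all genes the median was 0.02, and 9.88% fell and 5.98% rose. At E14.5 0 of 13 were called (median -0.44), where 2.01% of all genes were called. Ntn4, a netrin, went from 14.8 ± 0.722 to 6.89 ± 1.28 CPM at E16.5 (SD, n = 3, log2 fold change -1.12, adjusted p = 0.00387). Unc5d, a netrin receptor gene of the Unc5 family, fell by 0.50 (adjusted p = 0.00403) and Draxin, a secreted DCC-binding guidance protein, by 0.46 (adjusted p = 0.0158).

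Of 38 tested adhesion genes of other immunoglobulin families, 7 fell and 2 rose at E16.5 (median -0.17), where 9.88% of all genes fell and 5.98% rose. At E14.5 0 were called (median -0.28), where 2.01% of all genes were called. Dscam, a homophilic adhesion gene, went from 124 ± 6.29 to 65.8 ± 4.42 CPM at E16.5 (SD, n = 3, log2 fold change -0.93, adjusted p = 0.00126). The contactin genes Cntn1 and Cntn2, whose products are GPI-anchored like the IgLON proteins, fell by 1.11 (adjusted p = 0.00262) and 0.55 (adjusted p = 0.00302). The other contactin genes were not called at E16.5: Cntn3, Cntn4 and Cntn5 were at 0.29, 0.30 and 0.60, and Cntn6 was at -0.36. Nectin2 fell by 1.18 (adjusted p = 0.00354). Of 13 genes for attaching, remodelling or shedding GPI anchors, 3 rose (Pigs, Gpaa1 and Adam17) and 1 fell at E16.5 (median 0.20). The shares over all genes were again 5.98% higher and 9.88% lower. Pigs and Gpaa1, subunits of the transamidase that attaches the anchor, rose by 0.57 (adjusted p = 0.00485) and 0.45 (adjusted p = 0.0193), Adam17, a shedding protease, rose by 0.44 (adjusted p = 0.00809), and Gdpd5, a phosphodiesterase that releases GPI-anchored proteins, fell by 0.80 at E14.5 (adjusted p = 0.0381) and by 0.55 at E16.5 (adjusted p = 0.00799).

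Neuronal markers moved at the same time. Of 20 pan-neuronal markers 13 fell and 0 rose at E16.5 (median -0.53), where 9.88% of all genes fell and 5.98% rose. Their summed level lay between 8921 and 9916 CPM in WT and between 6659 and 7072 CPM in cKO. At E14.5 1 of the 20 fell (median -0.66), where 1.66% of all genes fell. The sums were 5778 to 8460 CPM in WT and 3155 to 5829 CPM in cKO. Apical progenitor markers had 3 called higher and 0 lower of 19 at E16.5, beside 5.98% and 9.88% of all genes. Their sums were 2712 to 3213 CPM in WT and 2818 to 3625 CPM in cKO. The part of these markers in the lower Iglon5 and Igdcc4 levels was not tested.

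**Figure D5:**
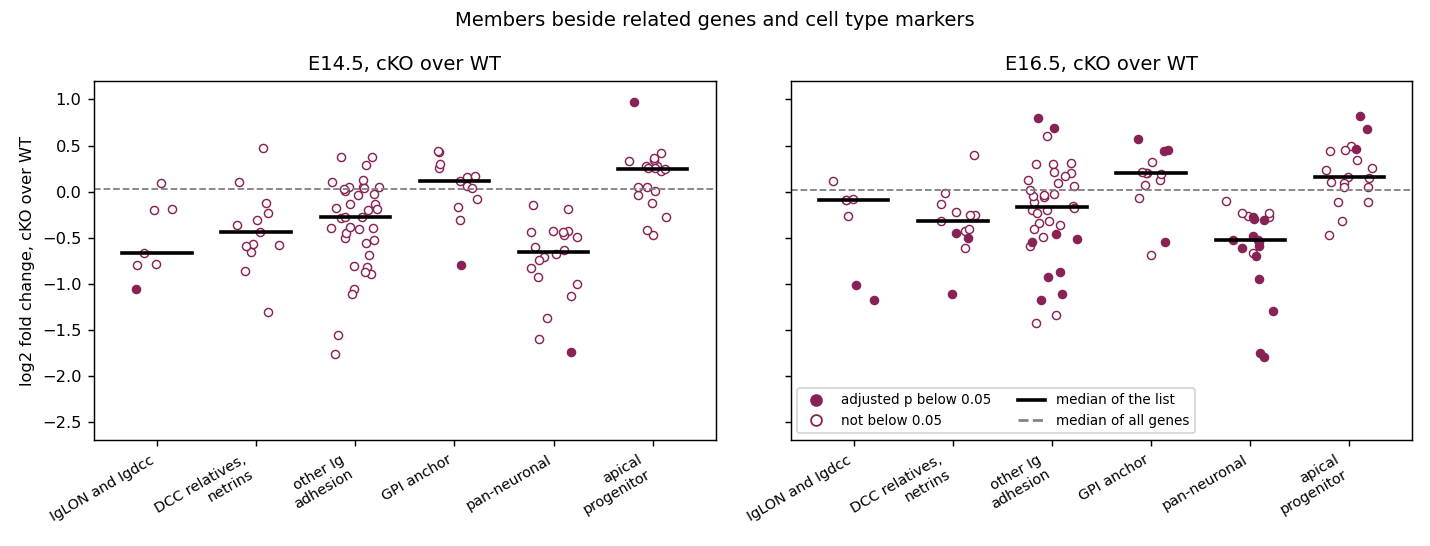
Log2 fold change of cKO over WT for each tested gene of 6 lists at E14.5 (left) and E16.5 (right), from 3 libraries per group; filled points passed an adjusted p of 0.05, black bars are list medians and the dashed line is the median of all genes. Among the members 1 point is filled at E14.5 and 2 at E16.5, and 13 of the 20 pan-neuronal markers are filled at E16.5.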

How the data were processed

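The members and all gene lists were chosen with earlier results of these data known. RNA was extracted with TRIzol, per the labels' protocols. Per the submitters' processing notes the authors' aligner was STAR 2.5.2b and the build mm10. They deposited raw fragment counts per gene, made with featureCounts 1.5.2 on the reverse strand with a minimum overlap of 25 bases, per the file headers. Tables deposited for each age give log2 fold changes of WT over knockout with p-values, for which the submitters' processing notes name DESeq2 1.14.1, and scores that are rounded means and sums of normalised counts; 12 columns of normalised library values there were not used. Of 27179 genes, 847 have no symbol.

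Counts were tested with edgeR 4.0.16 (R 4.3.3; TMM, filterByExpr, robust quasi-likelihood F test) with Benjamini-Hochberg adjustment over all genes and a threshold of 0.05. Each age was fitted on its 6 libraries, and age and its difference on all 12 in 4 groups. Standard errors are the log2 fold change over the square root of F, and intervals use the t quantile of the fit's degrees of freedom. Likeness used a prior count of 2 and genes with a mean of at least 1 CPM. Scripts were tested on simulated data.

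Deviations of libraries with the same title number from their group means correlated at 0.281, 0.210 and 0.112 at E16.5, all above 0.1, and at 0.272, 0.304 and -0.00218 at E14.5. The labels do not say what a number marks. The rule set for pairing, every pair of an age above 0.1, was met at E16.5 and not at E14.5. The printed tests have no block unless the text says so. Those at E16.5, and the shares over all genes beside them, therefore leave the pairing out. Text names all members, Ash2l, the nearest neighbour genes and the 2 genes closest in profile to each member. It also names up to 4 genes by p from each of 3 related lists, and the contactin genes beside Cntn1 and Cntn2. Marker lists covered neurons, progenitors, GABAergic and ventral cells, Cajal-Retzius cells, glia, meninges, vessels, immune cells, blood (7 of 8 symbols found) and choroid plexus. Alternatives were RLE scaling, library totals, no filter, DESeq2 1.42.0, a replicate block, a 12-library fit with and without embryo sex, and leaving out libraries.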

Additional observations from a re-analysis of the deposited data

How the results depend on the processing

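The count of members called at E14.5 (1) was 0 to 2 with 1 library left out, 2 with WT library B and cKO library A both left out, 3 in the 12-library fit, 3 by DESeq2 and 4 with the replicate block, which added Lsamp (-0.67, adjusted p = 0.0234), Negr1 (-0.81, adjusted p = 0.00479) and Igdcc4 (-0.81, adjusted p = 0.00951) to Iglon5. At E14.5, 2 of the 3 same-number pairs correlated above 0.1, so whether the numbers pair those libraries is not settled. The count at E16.5 (2) was 2 to 4 with 1 library left out, and 2 with the replicate block, which changed no member's call at that age. For the age difference it was 0 in each setting run. For age in WT (1) it was 0 without the filter on low counts, 2 by DESeq2 (Opcml and Igdcc3) and 0 to 1 with 1 library left out. For age in cKO (1) it was 0 without the filter and 0 to 5 with 1 library left out. Where this leaves a group with 2 libraries, the fit pools the spread over groups.

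Values that changed sign were not called under any setting that reversed them, and the cause was not tested. With 1 library left out, Opcml at E14.5 lay between -0.34 and 0.45, Ntm at E14.5 between -0.69 and 0.19, Ntm at E16.5 between -0.38 and 0.0402, Opcml at E16.5 between -0.26 and 0.10, and Negr1 at E16.5 between -0.20 and 0.0504. The age difference lay between -0.30 and 0.56 for Ntm, between -0.55 and 0.22 for Opcml, and between -0.0115 and 0.16 for Ash2l. Age in cKO lay between -0.0409 and 0.0851 for Iglon5, between -0.10 and 0.0238 for Igdcc3 and between -0.35 and 0.0177 for Igdcc4, and age in WT between -0.00894 and 0.14 for Ash2l. Ntm at E14.5 was 0.53 with WT library B and cKO library A left out, Opcml at E14.5 was -0.0500 with the replicate block, and Iglon5 for age in cKO was -0.00317 without the filter. The log2 ratio of Igdcc4 over Igdcc3 lay between -0.94 and -0.83 over both ages with 1 library left out, an alternative chosen after the data were seen (exact p between 0.005 and 0.01).

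Over all genes, calls at E14.5 (297) fell as low as 5 with 1 library left out (WT or cKO library C) and were 621 without both named libraries, 1279 with the replicate block, 1336 in the 12-library fit, 128 with embryo sex and 1187 by DESeq2. Calls at E16.5 (2358) ran from 987 to 2855, and were 4790 with the replicate block and 1569 with embryo sex. Calls for age in WT (330) ran from 1 to 2216 and were 1967 by DESeq2, and for age in cKO (1168) from 37 to 3679, 536 without the filter and 3126 by DESeq2. The age difference (0) had 1 with the replicate block.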
